A study of Danio rerio with 18 samples.

Results

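The genes described here carry signals across chemical synapses: slc17a6a, grin1a, syt5b, nrxn3b, slc6a5, gad3 and chrna4b. They are 7 of the 2646 genes that could be named on a zebrafish expression array with 37105 features. Their identifiers on the array are NM_001009982 for slc17a6a, NM_001076714 for grin1a, NM_001020546 for syt5b, NM_001080047 for nrxn3b, NM_001009557 for slc6a5, NM_001089570 for gad3 and NM_001048063 for chrna4b. All 7 were picked by name from earlier results of these same arrays. The comparison of control embryos at 48 and 24 hours post fertilization (hpf) had chosen nrxn3b, grin1a, slc17a6a, slc6a5 and syt5b. The MES particles at 48 hpf had also chosen grin1a and slc17a6a, and both particles at 24 hpf had also chosen nrxn3b. The comparison of TMAT with MES particles at 48 hpf had chosen gad3 and chrna4b. Values from those comparisons, and from comparisons that share those arrays, are therefore mostly given as descriptions without a test. Tests are given where a comparison had no part in the choice: the ages in exposed embryos for genes chosen on control ages, and the agents at 24 hpf for gad3 and chrna4b, among others.

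Whole embryos of Danio rerio were studied, with RNA taken from pools of 40 embryos. Chorions were removed at 4 hpf, and exposure to gold nanoparticles or vehicle began at 6 hpf. At 48 hpf the groups were TMAT particles at 10 µg/mL, MES particles at 50 µg/mL and the vehicle control, labelled CON, and at 24 hpf the same 3 agents were sampled. Each of these 6 groups had 3 arrays. Both particles have a gold core of 1.5 nm; MES is a mercaptoethanesulfonate ligand with a negative charge and TMAT a trimethylammonium ethanethiol ligand with a positive charge. The doses of the particles differ, so the ligand and the dose cannot be told apart. The labels name no strain and give the incubation temperature as 37 °C for every group. They do not say whether the 3 pools of a group came from separate clutches, so p-values measure only the spread between these pools.

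In a chemical synapse, an action potential opens calcium channels in the axon terminal, calcium triggers the fusion of transmitter-filled vesicles, and the transmitter opens receptors on the next cell. Glutamate is the main excitatory transmitter of the vertebrate brain and spinal cord, GABA and glycine are the main inhibitory ones, and acetylcholine serves the neuromuscular junction and many central neurons. Zebrafish embryos build their first spinal and hindbrain circuits around the ages sampled, and begin to swim in this period. These arrays measured RNA of whole embryos, in which fewer cells of a type and less RNA per cell cannot be told apart.

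Intensity is the brightness that the deposited tables give for a feature on a linear scale, and differences are given on the log2 scale, where 1 is a doubling. A feature is called where the adjusted p of limma's moderated test, Benjamini-Hochberg over all 37105 features, is below 0.05. Array medians of intensity were 1809 to 2197. Probes of random sequence, a measure of background, lay between 78.8 and 96.4 in exposed arrays. In control arrays they were at 106, 169 and 82.8 at 48 hpf and at 99.5, 126 and 84.4 at 24 hpf. The control groups also had the largest spread, with a median SD over features of 0.42 at 48 hpf and 0.48 at 24 hpf, against 0.21 to 0.33 in the exposed groups. The first control at 24 hpf and the second control at 48 hpf stood furthest apart, with a mean correlation to the other arrays of their age of 0.885 and 0.881. In a combined table that the authors also deposited, 16 of the 18 columns held the values of a sample other than the one named, and 6 of the 18 had the same agent by both labels. The 2 sets of labels gave matching ages for 10 of the 18 columns. Values given below for the combined table can therefore rest on changed ages as well as changed agents. With its labels limma called 0 features between ages in each agent. With the per-array labels it called 5733 in TMAT embryos, 9629 in MES embryos and 9942 in controls. The sources do not settle which of the 2 sets of agent labels is right, and each agent below is the one given with its own array. By the per-array labels syt5b, chosen on the control ages, lay between 18163 and 31272 in the 6 exposed arrays of 48 hpf and between 668 and 1275 in the 6 of 24 hpf, none of which had a part in its choice.

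Every member lay above the random probes in every array. All gad3 values, 357 to 1357, were below the array medians of 1809 to 2197. The same held at 24 hpf for nrxn3b, grin1a and syt5b, whose highest values there were 1368, 1055 and 1461. The lowest ratio of a member to the random probes of the same array was 4.34 for nrxn3b, 4.60 for grin1a, 4.54 for gad3, 5.86 for slc17a6a, 7.76 for syt5b, 18.7 for chrna4b and 22.2 for slc6a5. Between 8 and 11 probes report each of them, except chrna4b, which has 1 probe. A feature's brightness depends on its probes, so levels are compared between arrays and never between genes.

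**Figure D1:**
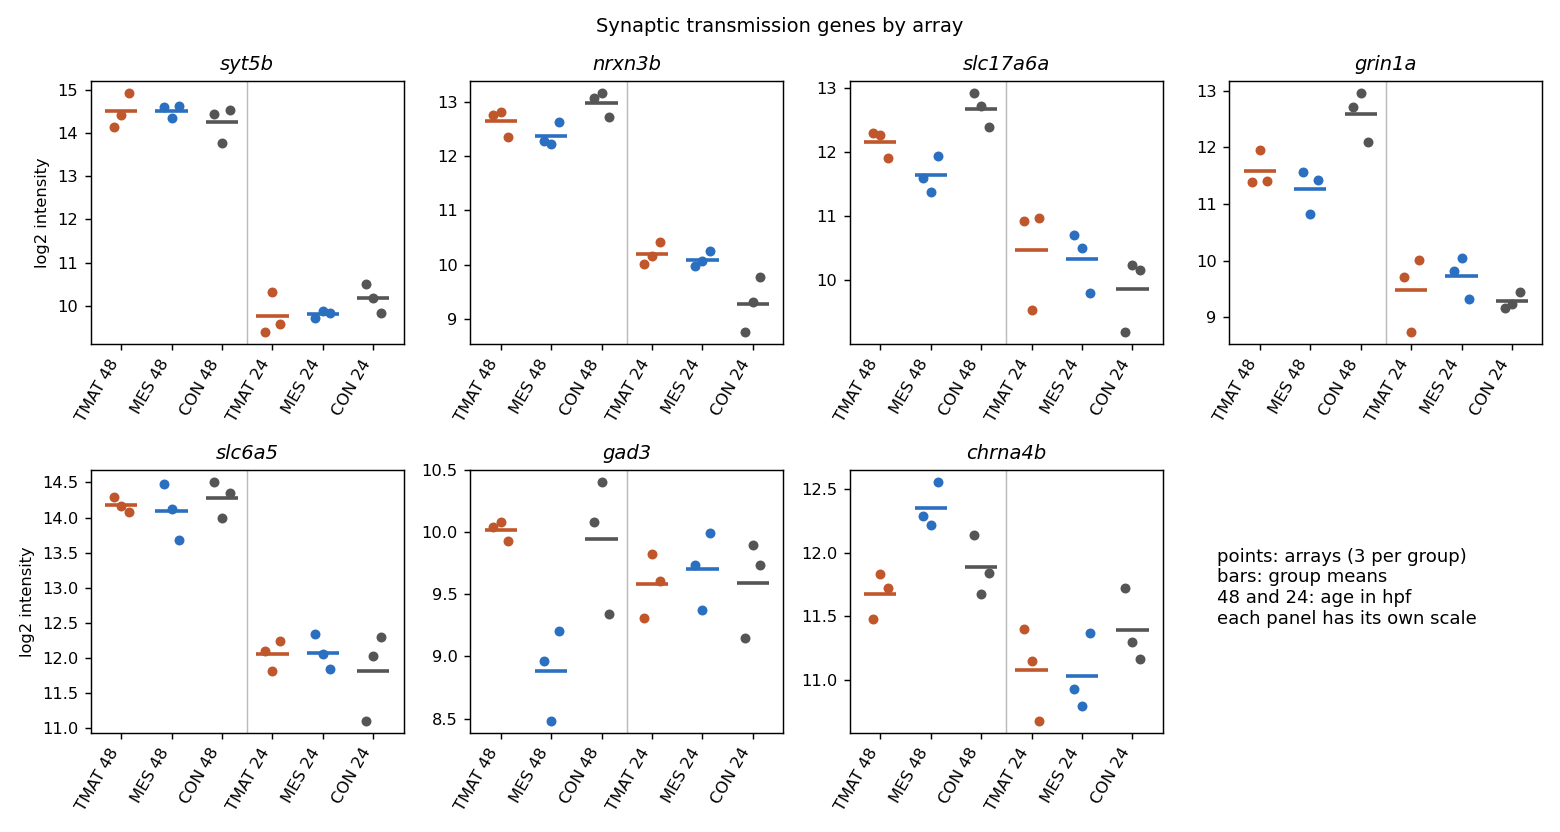
Log2 intensity of the 7 synaptic genes in each of the 18 arrays, with 1 panel and 1 scale per gene, 48 hpf groups left of 24 hpf groups, and TMAT, MES and CON from left to right. Points are arrays and bars are group means. For syt5b, nrxn3b, slc17a6a, grin1a and slc6a5 every array at 48 hpf is above every array at 24 hpf.

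The glutamate genes were both higher at 48 than at 24 hpf in every agent, and at 48 hpf both were lower in particle-exposed embryos than in controls. The transporter slc17a6a (a vesicular glutamate transporter that loads synaptic vesicles) had intensities of 5043, 4902 and 3839 in TMAT embryos, 3098, 2647 and 3902 in MES embryos and 7732, 6687 and 5358 in controls at 48 hpf. At 24 hpf they were 1948, 740.1 and 2002 in TMAT embryos, 1667, 1446 and 894 in MES embryos and 583, 1209 and 1144 in controls. At 48 hpf every control was above every exposed array, the TMAT and MES arrays overlapped, and every 48 hpf array of each agent lay above every 24 hpf array of the same agent. At 24 hpf the 3 agents overlapped. The age difference was 1.68 ± 0.38 in TMAT embryos (SE of limma's fit, n = 3 a group), where it rose 3.20-fold with an adjusted p in limma of 0.00566. It was 1.30 ± 0.38 in MES embryos, or 2.46-fold, and 2.81 ± 0.38 in controls, or 7.0-fold. At 48 hpf the difference from controls was -0.52 ± 0.38 with TMAT particles and -1.04 ± 0.38 with MES particles. Both share the same 3 control arrays, so the 2 values are not independent. The MES comparison had chosen slc17a6a, so both values are descriptions without a test.

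The second glutamate gene is grin1a, which encodes a form of the subunit that every NMDA receptor contains and that binds glycine or serine as its co-agonist. At 48 hpf it had intensities of 2668, 3967 and 2694 in TMAT embryos, 3014, 1808 and 2737 in MES embryos and 6659, 7947 and 4348 in controls. At 24 hpf it had 836, 426 and 1027 in TMAT embryos, 900.0, 1055 and 641 in MES embryos and 571, 603 and 699 in controls. The 48 hpf controls were all above the exposed arrays of that age, whose 2 groups overlapped, and all groups overlapped with each other at 24 hpf. Between ages, grin1a rose 4.27-fold in TMAT embryos, a log2 difference of 2.10 ± 0.33 with an adjusted p in limma of 0.000389 (n = 3 a group). The age difference was 1.54 ± 0.33 in MES embryos, or 2.90-fold, and 3.30 ± 0.33 in controls, or 9.85-fold. Against controls at 48 hpf it was -1.0 ± 0.33 with TMAT and -1.32 ± 0.33 with MES particles. The MES value is a description, because it chose the gene, and ranged from -1.56 to -1.09 when any array of the 2 groups was left out. In the control arrays at 48 hpf, grin1a ran in the order of their random probes (106, 169 and 82.8), as nrxn3b and gad3 did; whether this bears on the values was not tested.

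Of the release machinery, syt5b showed the largest age difference of the 7 genes in each agent. It belongs to the synaptotagmins, membrane proteins of vesicles, many of which sense the calcium that triggers release. At 48 hpf its intensities were 18163, 22057 and 31272 in TMAT embryos, 24811, 20809 and 25270.2 in MES embryos and 22231, 14106 and 23912 in controls. At 24 hpf they were 668, 1275 and 767 in TMAT embryos, 836, 934 and 906 in MES embryos and 1461, 1166 and 903 in controls. The highest array at 24 hpf, at 1461, was far below the lowest at 48 hpf, at 14106, and the agents overlapped at both ages. The rise with age was 26.8-fold in TMAT embryos (4.74 ± 0.29, adjusted p in limma 2.55e-08, n = 3 a group) and 26.4-fold in MES embryos (4.72 ± 0.29, adjusted p 2.61e-08). In controls, the age difference that chose the gene was 4.08 ± 0.29, or 17.0-fold. At 48 hpf the difference between TMAT and MES embryos was -0.02 ± 0.29, with a 95% interval of -0.63 to 0.59 and an adjusted p of 1.00. At 24 hpf it was -0.04 ± 0.29 (interval -0.65 to 0.57, adjusted p 1.00). Against controls it was 0.25 ± 0.29 with TMAT and 0.27 ± 0.29 with MES particles at 48 hpf, and -0.41 ± 0.29 with TMAT and -0.37 ± 0.29 with MES particles at 24 hpf.

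The adhesion protein encoded by nrxn3b is a neurexin, which sits in the presynaptic membrane, organises the release site and binds partners on the receiving cell. Its intensities at 48 hpf were 6900.2, 7205 and 5251 in TMAT embryos, 4978, 4772 and 6331 in MES embryos and 8608, 9185 and 6724 in controls. At 24 hpf they were 1030.1, 1144 and 1368 in TMAT embryos, 1002, 1071 and 1214 in MES embryos and 432, 638 and 879 in controls. All 6 exposed arrays at 24 hpf were above all 3 controls of that age, while at 48 hpf the 3 MES arrays were below the 3 controls and the TMAT arrays overlapped with both. The gene was higher at 48 hpf in every agent, 5.45-fold in TMAT embryos, 4.87-fold in MES embryos and 13.0-fold in controls. Age differences were 2.45 ± 0.25 in TMAT embryos, 2.28 ± 0.25 in MES embryos and 3.70 ± 0.25 in controls. At 48 hpf it differed from controls by -0.34 ± 0.25 with TMAT and -0.61 ± 0.25 with MES particles, and at 24 hpf by 0.91 ± 0.25 with TMAT and 0.81 ± 0.25 with MES particles. Only the difference between TMAT and MES embryos at 48 hpf, 0.27 ± 0.25, was free of the choice of the gene; its 95% interval was -0.27 to 0.80 and its adjusted p in limma 1.00.

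Of the inhibitory genes, slc6a5 rose with age in each exposed group and overlapped between agents. It encodes the glycine transporter that returns glycine to the terminals of glycinergic neurons, which in fish spinal cord and hindbrain coordinate swimming. At 48 hpf intensities were 20044, 18301 and 17302 in TMAT embryos, 22828, 17758 and 13143 in MES embryos and 23331, 16265 and 20786 in controls. At 24 hpf they were 4407, 3618 and 4859 in TMAT embryos, 5190.4, 4251 and 3666 in MES embryos and 2206, 4168 and 5056 in controls. The ages did not overlap in any agent, and the agents overlapped at both ages. slc6a5 rose 4.34-fold in TMAT embryos (2.12 ± 0.29, adjusted p in limma 0.000107) and 4.04-fold in MES embryos (2.01 ± 0.29, adjusted p 0.000162, n = 3 a group). In controls it was 5.54-fold higher (2.47 ± 0.29). The difference of TMAT from MES embryos was 0.08 ± 0.29 at 48 hpf (95% interval -0.53 to 0.70, adjusted p 1.00) and -0.02 ± 0.29 at 24 hpf (interval -0.64 to 0.60, adjusted p 1.00). Against controls at 48 hpf it was -0.10 ± 0.29 with TMAT and -0.19 ± 0.29 with MES particles.

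The other inhibitory gene, gad3, encodes a member of the glutamate decarboxylases, the enzymes that make GABA from glutamate, and was lowest in MES embryos at 48 hpf. Its intensities at 48 hpf were 1057, 1085 and 977 in TMAT embryos, 499.6, 357 and 589 in MES embryos and 1086, 1357 and 649 in controls. At 24 hpf they were 636, 907 and 781 in TMAT embryos, 854, 664 and 1021 in MES embryos and 568, 955 and 854 in controls. The 3 MES arrays at 48 hpf lay below the other 6 arrays of that age and below the MES arrays at 24 hpf, while every other pair of agents overlapped at either age. At 48 hpf gad3 was 2.2-fold higher in TMAT than in MES embryos (1.14 ± 0.29), the comparison that chose it. It differed from controls by 0.08 ± 0.29 with TMAT and -1.06 ± 0.29 with MES particles. The control values spanned 649 to 1357.

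The ratio of gad3 at 48 over 24 hpf was 1.35 in TMAT embryos (log2 difference 0.44 ± 0.29) and 0.566 in MES embryos (-0.82 ± 0.29). Every 48 hpf array was above the 24 hpf arrays in TMAT embryos and below them in MES embryos. In controls the age difference could be tested and was not called: 0.35 ± 0.29, adjusted p in limma 0.400, with a 95% interval of -0.27 to 0.97 (n = 3 a group). At 24 hpf gad3 differed from controls by -0.01 ± 0.29 with TMAT (interval -0.63 to 0.61, adjusted p 0.989) and 0.11 ± 0.29 with MES particles (interval -0.51 to 0.73, adjusted p 0.913).

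The cholinergic member, chrna4b, encodes an alpha 4 subunit of nicotinic acetylcholine receptors, which in the brain pair with beta subunits, and was highest in MES embryos at 48 hpf. It is measured by 1 probe. Its intensities at 48 hpf were 2848, 3647 and 3370.4 in TMAT embryos, 5000.5, 4759 and 6038 in MES embryos and 4508, 3262 and 3672 in controls. At 24 hpf they were 2702, 2274 and 1636 in TMAT embryos, 1950.5, 1773 and 2645 in MES embryos and 3376, 2513 and 2296 in controls. The 3 MES arrays at 48 hpf were above all other 15 arrays, and the other groups overlapped at both ages between agents. Against MES embryos of 48 hpf, TMAT embryos differed by -0.68 ± 0.24, which chose the gene. The difference from controls was -0.21 ± 0.24 with TMAT and 0.47 ± 0.24 with MES particles at 48 hpf. Age differences were 0.60 ± 0.24 in TMAT embryos and 1.32 ± 0.24 in MES embryos, and in controls 0.49 ± 0.24 with a 95% interval of -0.02 to 1.00 and an adjusted p in limma of 0.144 (n = 3 a group). At 24 hpf chrna4b differed from controls by -0.32 ± 0.24 with TMAT (interval -0.83 to 0.19, adjusted p 0.660) and by -0.36 ± 0.24 with MES particles (interval -0.88 to 0.15, adjusted p 0.787).

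Across the members, 7 of 7 were higher at 48 hpf in TMAT embryos with no overlap between ages, where 16.1% of all features were. In MES embryos 6 of 7 were higher without overlap and 1, gad3, lower, where the background was 26.4% higher and 29.1% lower. For some members these arrays had a part in the choice (nrxn3b, gad3 and chrna4b with TMAT, and grin1a and slc17a6a too with MES), so nothing is read from either count. In controls 5 of 7 were higher without overlap against 16.7% of all features, but the control ages had chosen those 5, so nothing is read from that count. Of the members that could be tested with particles, 4 of 4 were called higher in TMAT embryos (syt5b, grin1a, slc6a5 and slc17a6a; background 7.9%) and 2 of 2 in MES embryos (syt5b and slc6a5; background 13.4%), where 7.55% and 12.6% of all features were called lower. In controls 0 of 2 tested members (gad3 and chrna4b) were called, where 26.8% of all features were. The calls in exposed embryos held when any single array of the compared groups was left out, with adjusted p-values up to 0.0281. They were lost with the agents and ages of the combined table (adjusted p in limma 1.00 where the direction stayed). Its labels gave the same age as the per-array labels for 10 of 18 columns, and with them limma called 0 of all features between ages. This loss is therefore not particular to these genes. All 4 genes had been chosen on the control ages, so the counts describe the same genes in exposed arrays that had no part in that choice. The median of the 7 was 2.10 in TMAT embryos, 1.54 in MES embryos and 2.81 in controls, against -0.03, -0.04 and -0.01 over all features. The choice of the members bears on these medians too, so nothing is read from them.

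**Figure D2:**
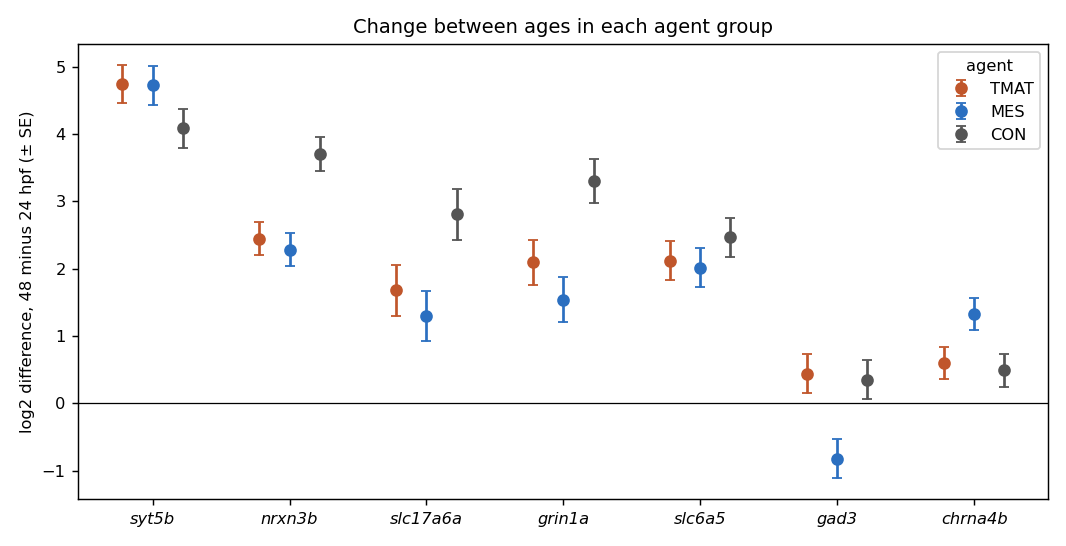
Log2 difference of 48 from 24 hpf for each of the 7 genes in TMAT, MES and CON embryos (n = 3 arrays a group), with bars for the SE of limma's fit. The synaptic genes nrxn3b, grin1a, slc17a6a and slc6a5 lie lower in the exposed groups than in controls, and gad3 lies below 0 in MES embryos.

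Side by side, the age difference of nrxn3b, grin1a, slc17a6a and slc6a5 was smaller in both exposed groups than in controls with all arrays. The value in TMAT embryos minus that in controls was -1.25 ± 0.36 for nrxn3b, -1.21 ± 0.47 for grin1a, -1.13 ± 0.53 for slc17a6a and -0.35 ± 0.41 for slc6a5. For MES embryos it was -1.42 ± 0.36 for nrxn3b, -1.76 ± 0.47 for grin1a, -1.51 ± 0.53 for slc17a6a and -0.46 ± 0.41 for slc6a5. For syt5b it was 0.66 ± 0.41 with TMAT and 0.64 ± 0.41 with MES, the opposite sign. The control age difference chose these 5 genes, so no test is given. For slc6a5 leaving out 1 array gave -0.60 to 0.00 with TMAT and -0.70 to -0.10 with MES. The direction with TMAT rested on 1 array, since the TMAT value reached 0.0022 without the first control at 24 hpf. The direction with MES stayed. In the combined table the TMAT value turned to 0.49 for grin1a, 0.52 for slc17a6a and -0.26 for chrna4b, and the MES value to -2.65 for syt5b, 0.38 for gad3 and -0.55 for chrna4b. Over all features the difference in age change was called for 0 features with TMAT and 1 with MES particles, which is 0% and 0.0027%.

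At 48 hpf, the exposed groups were set against the same 3 control arrays. With MES particles 4 of 7 members (grin1a, slc17a6a, gad3 and nrxn3b) were below every control, where 20.2% of all features were, and 1 (chrna4b) was above, where 10.3% were. With TMAT particles 2 of 7 (grin1a and slc17a6a) were below every control, where 15.9% of all features were, and 5 overlapped. Limma called 5.76% of all features with MES particles, 3.87% higher and 1.89% lower, and 0% with TMAT particles. These counts rest on single arrays: with MES particles 2138 features were called, 0 without the first control, the first MES or the second MES array, 2 without the second control and 6260 without the third. With TMAT particles 6310 were called without the third control. Over all features the median difference from controls was -0.15 with TMAT and -0.14 with MES particles. The comparison had chosen grin1a and slc17a6a, and gad3 and chrna4b came from a comparison that uses the same MES arrays, so nothing is read from these counts. With the labels of the combined table the difference from controls turned to 0.60 for grin1a, 0.68 for slc17a6a, 0.17 for nrxn3b and 0.28 for slc6a5 with TMAT particles, and to 0.50 for gad3, -0.71 for chrna4b and -1.65 for syt5b with MES particles. The TMAT embryos differed from MES embryos with 1 member above without overlap (gad3, background 4.5%), 1 below (chrna4b, background 7.05%) and 5 overlapping. In the combined table chrna4b was at 0.07 there, the other direction. None of the 3 tested members, nrxn3b, syt5b and slc6a5, was called, and limma called 0 of 37105 features there, with 590 at an unadjusted p under 0.05.

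**Figure D3:**
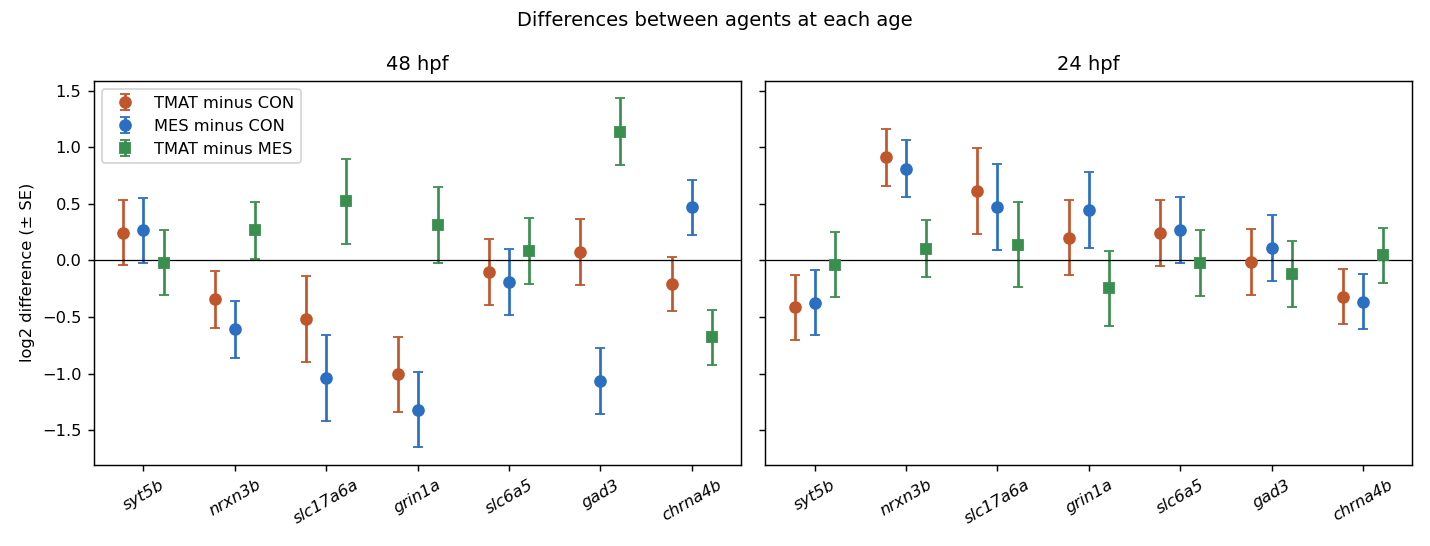
Log2 differences of TMAT from CON, MES from CON and TMAT from MES for the 7 genes at 48 and at 24 hpf, with bars for the SE (n = 3 arrays a group). At 48 hpf grin1a, slc17a6a and gad3 lie furthest below 0 in MES against CON, and at 24 hpf nrxn3b lies above 0 with both particles.

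Leaving out 1 array at a time moved the MES difference from controls at 48 hpf to -1.56 to -1.09 for grin1a, -1.19 to -0.91 for slc17a6a, -1.36 to -0.83 for gad3, -0.74 to -0.52 for nrxn3b and 0.36 to 0.60 for chrna4b. The direction of these 5 genes did not depend on any single array. The arrays compared had a part in choosing all 5, so nothing is read from this.

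**Figure D4:**
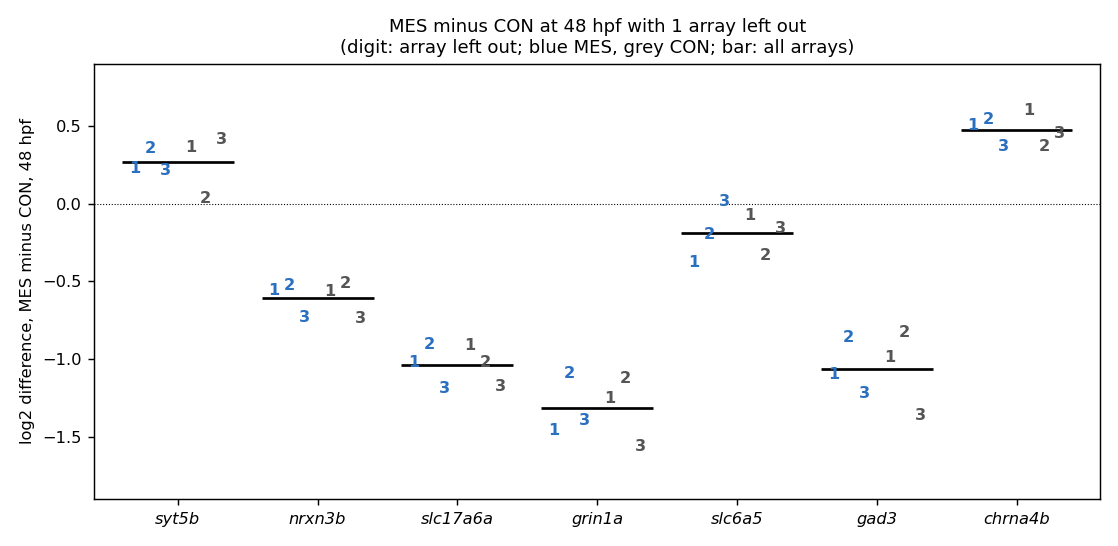
Log2 difference of MES from CON embryos at 48 hpf for each member, with all arrays (bar) and with 1 array left out (digits: the replicate left out, blue for MES and grey for CON). slc6a5 lies on both sides of 0, from -0.38 to 0.02, while grin1a, slc17a6a, gad3 and nrxn3b stay below 0.

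At 24 hpf most members overlapped between agents. In each particle comparison with controls, nrxn3b was the only member without overlap, above every control, where the background share was 1.99% with TMAT and 1.66% with MES particles. That comparison had chosen it. In the combined table syt5b turned to 1.00 for MES against CON and nrxn3b to -1.12 for TMAT against MES. Between TMAT and MES embryos, 7 of 7 members overlapped, where 1.84% of all features were above and 1.58% below without overlap, and of the 6 that were tested 0 were called, with differences of -0.25 for grin1a, 0.14 for slc17a6a, -0.12 for gad3 and 0.05 for chrna4b. The 95% intervals were -0.95 to 0.46 for grin1a, -0.66 to 0.94 for slc17a6a, -0.74 to 0.50 for gad3 and -0.47 to 0.56 for chrna4b, with adjusted p-values in limma of 1.00. Over all features limma called 0 in each of the 3 comparisons at 24 hpf, with 2242 at an unadjusted p under 0.05 for TMAT against CON, 1459 for MES against CON and 37 for TMAT against MES.

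The order of the 6 groups differed between the genes. The control group at 48 hpf ranked first for nrxn3b, grin1a, slc17a6a and slc6a5, and the control group at 24 hpf last for the same 4 genes. For grin1a and slc17a6a the 48 hpf controls did not overlap with the next group, whereas for nrxn3b and slc6a5 they did. The order of syt5b was MES, TMAT and CON at 48 hpf, all overlapping, followed by CON, MES and TMAT at 24 hpf, also overlapping. For gad3, MES at 48 hpf ranked last and did not overlap with the group before it, and for chrna4b MES at 48 hpf ranked first and did not overlap with the group after it. The control ages chose the 4 genes above and syt5b, and TMAT against MES at 48 hpf chose gad3 and chrna4b. Nothing is therefore read from these orders.

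Genes with the nearest pattern were named by the root-mean-square (RMS) log2 difference of their centred profiles over the 6 group means, as a description. The nearest of the named genes to grin1a was zbtb20, with an RMS of 0.0824, followed by dscama at 0.121 and erc1a, a scaffold of presynaptic release sites, at 0.134. For slc17a6a they were cntn4 at 0.157, gria1a, an AMPA receptor subunit, at 0.159 and ppp2r2bb at 0.164. Nearest to slc6a5 were gfra1a at 0.0846, zgc:112294 at 0.102 and septin5b at 0.121. To nrxn3b they were cdk5r1b at 0.218, znf385b at 0.271 and crmp1 at 0.275. The nearest to syt5b were crygm2d13, a lens crystallin, at 0.0699, matn3a at 0.143 and rs1a, a retinal adhesion protein, at 0.161. To gad3 they were styx at 0.174, cnpy2 at 0.204 and btc at 0.206, and to chrna4b ora2 at 0.115, lrit1a at 0.132 and prkar2ab at 0.140. Among the members, the nearest to grin1a was slc17a6a, at 0.273, while the member nearest to syt5b, nrxn3b, was at 0.985 and the one nearest to gad3, chrna4b, was at 0.710.

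Other synapse genes were followed with 6 lists, members left out. The lists held 340 current symbols, of which 40 genes with a named feature are described, so most listed genes were not seen. At 48 hpf, 22 of the 40 were called higher than at 24 hpf and 1 lower in TMAT embryos, 22 higher and 2 lower in MES embryos, and 26 higher and 2 lower in controls. The background was 7.9% higher and 7.55% lower in TMAT embryos, 13.4% and 12.6% in MES embryos and 13.4% and 13.4% in controls. The median of the 40 was 1.20 in TMAT embryos, 0.98 in MES embryos and 1.31 in controls, against medians over all features near 0. Leaving out any 1 array gave 17 to 19 genes called higher in TMAT embryos, 18 to 22 in MES embryos and 21 to 30 in controls. With the arrays of the compared groups alone they were 24 higher and 1 lower in TMAT embryos, 27 and 2 in MES embryos and 15 and 0 in controls. Over all features 3218, 7715 and 1901 were then called higher in TMAT embryos, MES embryos and controls, against 2931, 4969 and 4954 in the main fit. The combined table called 0 of 40 in each agent, and 0 of all features.

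Of the 8 glutamate genes described, from 47 listed, 6 were called higher in TMAT embryos, 5 in MES embryos and 7 in controls. Over all features the shares were 7.9%, 13.4% and 13.4%. In MES embryos slc1a1, a glutamate transporter, rose by 1.75 ± 0.21 (adjusted p in limma 2.73e-05), gria4a, an AMPA receptor subunit, by 1.33 ± 0.25 (0.00136) and gria1b by 0.88 ± 0.22 (0.0102). Of the 4 GABA and glycine genes described, 3 were called higher in each agent, but they were not the same 3. The transporter slc32a1, which loads GABA and glycine into vesicles, rose in all agents, at 1.85 ± 0.30 in MES embryos (0.000488), as did gabrr2a, a GABA receptor subunit named after its values were seen, at 1.44 ± 0.33 there (0.00506). Another GABA receptor subunit, gabra4, rose by 1.15 ± 0.26 in TMAT (0.00614) and 1.32 ± 0.26 in MES embryos (0.00211) and was at 0.39 ± 0.26 in controls (0.283). The glycine receptor subunit glra3 was at 0.11 ± 0.21 in TMAT (0.801) and -0.05 ± 0.21 in MES embryos (0.887) and rose by 0.67 ± 0.21 in controls (0.0279). In the cholinergic list, 1 of 4 was called higher in each agent, chrna6 at 1.73 ± 0.30 in MES embryos (0.000799). In each agent 1 was called lower, with chrnd, a muscle receptor subunit, at -1.02 ± 0.20 in MES embryos (0.00226). Of the 7 monoamine genes 2 were called higher in TMAT embryos, 3 in MES embryos and 2 in controls, with drd3, a dopamine receptor, at 1.99 ± 0.32 in MES embryos (0.000396) and drd2a at 0.87 ± 0.25 (0.0192). The histamine receptor hrh2a was at 0.40 ± 0.34 there (0.412).

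Of the 7 release genes 4 were called higher at 48 hpf in TMAT embryos, 4 in MES embryos and 5 in controls. Over all features 7.9% were called higher in TMAT embryos and 13.4% each in MES embryos and controls. Among the 4 in MES embryos were syn2a, a synapsin that tethers vesicles, at 2.02 ± 0.26 (adjusted p in limma 4.78e-05) and amph, which recycles vesicle membrane, at 1.79 ± 0.24 (7.40e-05). Of the 7, stx4, a syntaxin of the plasma membrane, fell in MES embryos and in controls, at -1.54 ± 0.45 (0.0199) in MES embryos; it was named after its value was seen. Of the 10 adhesion and scaffold genes 6 were called higher in TMAT embryos, 6 in MES embryos and 8 in controls. In MES embryos cbln2b, a secreted organiser that binds neurexins, was at 1.80 ± 0.23 (6.01e-05) and nrxn2b, a neurexin like nrxn3b, at 1.43 ± 0.33 (0.00561).

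**Figure D5:**
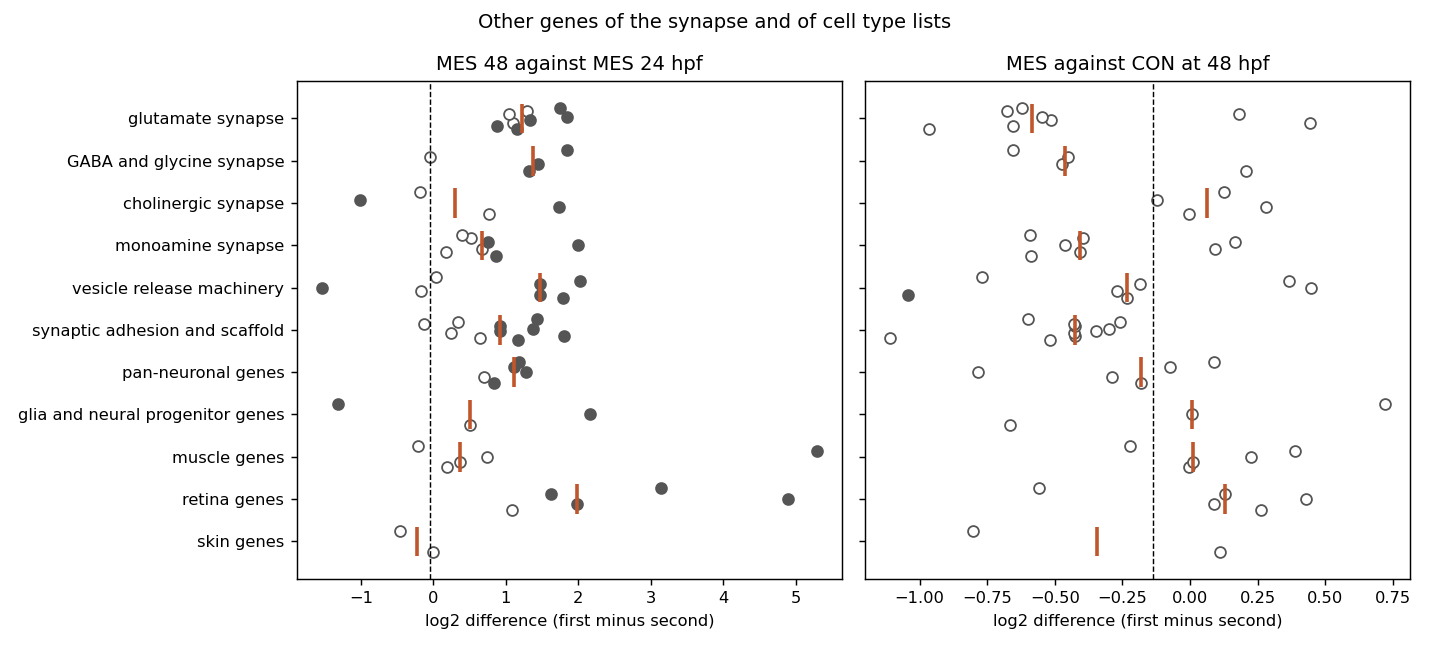
Log2 differences of the measured genes of each list, without the 7 members, for MES embryos between ages (left) and for MES against CON at 48 hpf (right). Each point is a gene, filled where limma called it, the orange bar is the list's median and the dashed line the median over all features; 1 of the 40 synapse genes, erc1a, is filled on the right.

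At 48 hpf, 32 of the 40 synapse genes were below controls with TMAT particles and 31 of 40 with MES particles, with medians of -0.42 and -0.42; the median over all features was -0.15 and -0.14. With MES particles 1 of the 40 was called lower, erc1a at -1.04 ± 0.29 (adjusted p in limma 0.0447), where 1.89% of all features were, and with TMAT particles 0 (background 0%; 7519 features had an unadjusted p under 0.05). Array weights called 23 of 40 lower and 3 higher with TMAT and 28 lower and 3 higher with MES particles, where 24.6% and 32.5% of all features were called lower. Over all features 5263 were called higher with TMAT and 7038 with MES particles. The weights of the 3 controls at 48 hpf were 6.39, 0.19 and 0.35, so the weighted control mean rested mostly on the first. The erc1a call was kept with array weights (adjusted p in limma 0.000514), with quantile normalization (0.0393), without dim features (0.0439) and without the third control (0.0098). It was lost by the ordinary statistic (adjusted p in limma 0.0735), with centred arrays (0.0564), with the replicate block (0.0679), in the compared groups alone (0.136) and in the combined table (1.00). It was lost when the first control at 24 hpf and the second control at 48 hpf were left out together, with an adjusted p of 0.133 in limma, and without each single array of the 2 groups other than the third control, at 0.0625 to 0.236. Without the third control 11 of 40 genes were called lower with TMAT and 8 of 40 with MES particles, where 9.58% and 9.09% of all features were. Of the other named genes, slc1a1 was at -0.62 ± 0.21 (0.0860), gria1b at -0.65 ± 0.22 (0.0926), slc32a1 at -0.65 ± 0.30 (0.206), glra3 at -0.45 ± 0.21 (0.211) and camk2a, a kinase of the postsynaptic side, at -1.11 ± 0.38 (0.0955) with MES particles. Of the 40 genes 9 lay above controls with MES particles, with 0 called higher. Among these, mean log2 intensities in MES embryos and controls were 12.43 and 12.07 for syn2a. They were 10.87 and 10.59 for chrna6 and 8.65 and 8.45 for gabra4. In the adhesion and scaffold list 10 of 10 were below controls with both particles, sharing the controls, with 0 called. The medians over all features were below 0 too, so most features lay below controls. Nothing particular to synapse genes is read from the counts of genes below controls. Between TMAT and MES embryos 0 of 40 were called and the median was 0.05.

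Markers of neurons and of other tissues were followed over the same arrays. Of 50 listed neuronal markers with a current symbol 5 were measured. Of these 5, 4 were called higher at 48 than at 24 hpf in each agent. Over all features 7.9% were called higher in TMAT embryos and 13.4% each in MES embryos and controls. In MES embryos sncb, a synuclein, was at 1.12 ± 0.22 and stmn2b, a stathmin of growing axons, at 1.17 ± 0.25 (adjusted p in limma 0.00172 and 0.00342). There scn1lab, a sodium channel, was at 1.28 ± 0.33 (0.0109). At 48 hpf 3 of the 5 neuronal markers were below controls with TMAT and 4 of 5 with MES particles, with medians of -0.17 and -0.18, against -0.15 and -0.14 over all features, and 0 called. Named for the smallest p with MES particles there, scn1lab was at -0.75 ± 0.33 with TMAT (adjusted p in limma 0.219) and -0.79 ± 0.33 with MES particles (0.162), and cntn1a, an axonal adhesion protein, at -0.53 ± 0.35 and -0.29 ± 0.35. Above controls lay 2 of the 5 with TMAT and 1 with MES particles. Mean log2 intensities of stmn2b were 14.84 with TMAT particles, 14.76 with MES particles and 14.67 in controls. The synaptic and neuronal lists were not tested against each other. Of 3 glia and progenitor genes, fabp7a, a radial glia gene, rose at 2.16 ± 0.30 and sox19b, a progenitor gene, fell at -1.32 ± 0.28 in MES embryos (0.000129 and 0.00340). Of the 5 measured muscle genes 1 was called in MES embryos, tnni2b.2, a troponin, which rose at 5.29 ± 0.43 (5.29e-07). The median of the 5 was 0.37. Mean log2 intensities at 48 and 24 hpf there were 15.86 and 15.49 for mylpfb and 15.15 and 15.36 for tpm2. The retina list had 5 measured genes, of which 4 were called higher in MES embryos, among them sagb at 3.14 ± 0.24 and rs1a at 4.89 ± 0.40 (3.72e-07 and 6.00e-07). No gene of the marker lists was called against controls at 48 hpf in either exposed group, the 2 skin genes included. The part of other tissues in the synaptic values was not tested.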

How the data were processed

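Each of the 18 arrays came as a table that the authors deposited with an intensity per feature on a linear scale, labelled in 1 colour (Cy3) per the labels. Per the submitters' processing notes these are RMA values; neither a version nor whether both ages were normalized together is given. From these deposited intensities log2 values were taken, with no further scaling or filter. R 4.3.3 with limma 3.58.1 fitted 1 mean per group over all 37105 features, with 18 arrays in 1 fit, moderated two-sided tests and Benjamini-Hochberg adjustment; the threshold was 0.05. The residual degrees of freedom were 12 and the median SE of a difference was 0.327. The number of arrays limits the precision. Groups were taken from each sample's labels. Gene symbols came from the RefSeq table of assembly GRCz12tu, which named 2659 features. The members and the gene lists were chosen with earlier results of these data known. Named were the 7 members, the 2 genes with the smallest p in MES age and the 2 in MES against CON at 48 hpf for each list with at least 3 measured genes, and the 3 nearest named genes for each member. Same-numbered arrays were checked for pairing by the correlation of their deviations from the group means: 13 of 45 pairs were above 0.1 (r -0.73 to 0.61). The arrays were not treated as paired, though with so few arrays a group this check cannot exclude pairing. The fit was tested on simulated arrays with the same spread in every group and changes placed only in MES embryos at 48 hpf. The larger spread of the controls was not simulated, so this test does not bear on comparisons with controls. Alternatives were the ordinary statistic, array weights, median centring, quantile normalization, leaving out dim features, a replicate block and the combined table. Others were leaving out 1 array of the compared groups, leaving out both control arrays that stood apart, and the compared groups alone. Sequences of the members are not used here, and 1 listed gene is not reported here.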

Additional observations from a re-analysis of the deposited data

Results flagged for a closer look

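Of the members, 2 had every array of a group on opposite sides in 2 comparisons, and the differences between these comparisons were not tested. The MES embryos were below controls for nrxn3b at 48 hpf, by -0.61 on the log2 scale, and above them at 24 hpf, by 0.81. Both values had a part in choosing the gene or share arrays with the ones that did. For gad3 every array was higher at 48 than at 24 hpf in TMAT embryos, a difference of 0.44, and lower in MES embryos, a difference of -0.82. The gene was chosen on TMAT against MES embryos at 48 hpf, which share the arrays.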

How the results depend on the processing

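The called rises of syt5b and slc6a5 in TMAT and MES embryos, and of grin1a and slc17a6a in TMAT embryos, kept their side of the threshold under every alternative except the combined table. With its labels, which matched the per-array ages for 10 of 18 columns, limma called 0 of all features between ages, so this loss is not particular to the members. For TMAT embryos the combined table gave 1.59 for syt5b, 0.54 for slc6a5, 0.65 for grin1a and 0.78 for slc17a6a, all not called. In MES embryos it turned the age difference to -0.91 for nrxn3b, -1.56 for grin1a, -0.83 for slc17a6a, -0.81 for slc6a5, -1.43 for syt5b and -0.22 for chrna4b. It also gave -0.82 for slc17a6a and -0.22 for chrna4b in TMAT against MES at 24 hpf, 1.70 for syt5b in TMAT against MES at 48 hpf, -0.48 for the age difference of gad3 in controls and 0.50 for gad3 in MES against CON at 48 hpf. With array weights TMAT against MES at 24 hpf became 0.0056 for grin1a, 0.0198 for slc6a5 and -0.0302 for chrna4b, and at 48 hpf -0.10 for slc6a5; gad3 in MES against CON at 24 hpf became -0.14, and the age difference of chrna4b in controls, 0.87, was called. Quantile normalization gave 0.00022 for slc6a5 in TMAT against MES and 0.0398 for gad3 in TMAT against CON at 24 hpf. Without both control arrays that stood apart, gad3 was at -0.11 between control ages and at -0.11 in MES against CON at 24 hpf. Leaving out 1 array gave, for TMAT against MES at 24 hpf, -0.51 to 0.13 for grin1a, -0.13 to 0.61 for slc17a6a, -0.14 to 0.11 for slc6a5, -0.32 to 0.15 for syt5b, -0.29 to 0.0253 for gad3 and -0.12 to 0.25 for chrna4b, and at 48 hpf -0.12 to 0.28 for slc6a5 and -0.23 to 0.16 for syt5b. For gad3 at 24 hpf it gave -0.24 to 0.14 in TMAT against CON and -0.11 to 0.27 in MES against CON. The count of all features called moved more. Between ages it was 5733 in TMAT embryos, with 14634 under array weights, 8887 without both controls, 0 in the combined table and 3708 to 4927 without 1 array. In MES embryos it was 9629, with 21760, 14789 and 0 under the same settings, 15575 for these groups alone and 5013 to 8494 without 1 array. In controls it was 9942, with 0 in the combined table, 2665 for these groups alone and 6876 to 12655 without 1 array. For TMAT against CON at 48 hpf it was 0, with 14393 under array weights and 0 to 6310 without 1 array, the highest without the third control. Array weights of the 3 controls at 48 hpf were 6.39, 0.19 and 0.35, so weighted counts against these controls rested mostly on the first. For MES against CON at 48 hpf it was 2138, with 21 by the ordinary statistic, 19103 under array weights, 0 in the combined table, 3 without both controls, 0 for these groups alone and 0 to 6260 without 1 array: 0 without the first control, the first MES or the second MES array, 2 without the second control and 6260 without the third. TMAT against MES at 48 hpf gave 5 under array weights. The difference in age change was called for 4178 features with TMAT under array weights and, with MES, for 7626 under array weights, 0 to 1800 without 1 array, and 0 with centring, the combined table, both controls left out or these groups alone. The replicate block, whose numbers were not shown to pair the arrays, left 1385 features for MES against CON at 48 hpf and 0 for the difference in age change with MES. The cause of these shifts was not tested.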
